A study of Mus musculus with 3 samples.

Results

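The cells described here are macrophages of day 5 subcutaneous Matrigel masses in which at least 2 of 6 genes, Hal and Retnla among them, were detected. They were chosen by counting detected genes in each cell. A member had at least 2 of Hal, Ltc4s, Retnla, Fcna, Ednrb and Ifitm6 (list B), more of these than of the 6 genes Ms4a7, Ccl12, Stab1, Ccl8, Pf4 and Cbr2 (list A), more than of the 6 genes Mmp12, Ear2, Dcstamp, Itgax, Ear1 and Cd209a (list C), and no Mki67 UMI. The count ran over cells with 200 to 6000 genes, at most 5% mitochondrial UMIs (unique molecular identifiers, 1 per captured RNA molecule) and under 1% of UMIs in the 5 matrix genes Col1a1, Col1a2, Col3a1, Dcn and Lum. It found 1731 members among 21503 cells that passed the gene and mitochondrial limits, out of 23219 barcodes. Cells in which list A or list C led under the same rule, 7747 A-led and 2096 C-led cells, are used below for comparison. The levels of the 18 genes on these lists chose the cells, so they are given as a description only.

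All mice were CD-1 females 6 to 8 weeks old, an outbred stock, and each carried Matrigel, a basement membrane gel that host cells invade. The Matrigel-only group received gel without growth factor and no gavage. In the Vehicle and Palo groups the gel held recombinant human BMP2 (rhBMP2), which starts ectopic cartilage and bone formation. Vehicle mice were gavaged daily with corn oil and DMSO, and Palo mice with palovarotene, an agonist of the retinoic acid receptor gamma, at 4 mg/kg. Masses were pooled within a group, digested with dispase and run as 1 droplet RNA library per group, so that animals within a library cannot be told apart and no difference between conditions could be tested. The intervals given throughout are 95% intervals for counting error alone. Matrigel-only and Vehicle differ in rhBMP2 and in gavage together. The libraries held 44252421, 46317250 and 46901673 UMIs for Matrigel-only, Vehicle and Palo. They shared few cell barcodes, 19 between Matrigel-only and Vehicle, 21 between Matrigel-only and Palo and 11 between Vehicle and Palo.

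Macrophages in a wound or implant come from circulating monocytes and from cells already seated in the tissue, and both take on programmes set by cytokines, oxygen and the matrix around them. Retnla encodes a small secreted cysteine-rich protein (RELM-alpha, also Fizz1) that is induced in mouse macrophages by interleukin 4 and interleukin 13 through STAT6 and is used as a mark of alternative activation. Hal encodes histidine ammonia-lyase, the first enzyme of histidine breakdown, and Ltc4s the enzyme that joins glutathione to leukotriene A4. Fcna encodes ficolin A, a lectin that starts the complement cascade, Ednrb the endothelin B receptor, and Ifitm6 a membrane protein of the interferon-induced transmembrane family.

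On mm10 with GENCODE M21 annotation, Retnla lies at chr16:48842551-48844461 on the plus strand, Hal at chr10:93488768-93519304 (plus), Ltc4s at chr11:50236461-50238616 (minus), Fcna at chr2:25624666-25628030 (minus), Ednrb at chr14:103814625-103844402 (minus) and Ifitm6 at chr7:141015699-141017924 (minus). Reads were counted over the transcripts of each gene. The promoter of Retnla is shown because it was the gene with the most UMIs on list B in every library. It covers 250 bases before to 50 bases after the RefSeq start (GRCm38.p6, chr16:48842359-48842658, plus strand), with the single match to the STAT6-type motif (TTC, any 4 bases, then GAA) in capitals. The match begins at position -145 from the start.
Retnla: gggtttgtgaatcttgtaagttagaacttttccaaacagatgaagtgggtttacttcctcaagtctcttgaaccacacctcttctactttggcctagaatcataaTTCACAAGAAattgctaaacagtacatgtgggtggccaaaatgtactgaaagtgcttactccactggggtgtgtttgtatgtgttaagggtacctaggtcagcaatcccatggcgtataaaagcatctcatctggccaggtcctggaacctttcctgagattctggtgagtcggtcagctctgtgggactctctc
Of the 6 list B promoters, this was the 1 with the motif, and 6.95% of all 32851 promoters in the table (2284) hold it on either strand. The match describes letters in this window and not a bound site.

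Members were scarce in the Vehicle library. Of the Matrigel-only cells 10.9% were members (950 of 8728 cells, exact binomial interval 10.2 to 11.6%). The share was 2.01% for Vehicle (110 of 5478, 1.65 to 2.42%) and 9.20% for Palo (671 of 7297, 8.54 to 9.88%). Values without a library name are given in this order from here on. The difference of Vehicle from Matrigel-only was -8.88 percentage points (Newcombe interval -9.63 to -8.12), and that of Palo from Vehicle 7.19 points (6.43 to 7.95). Palo and Matrigel-only lay closer, with a difference of -1.69 points (-2.62 to -0.754). Because the rule counts detected genes and deeper cells have more of them, cells were also thinned at random to 1500 UMIs each before it was applied. The shares among the 7596, 4720 and 6964 cells that were deep enough then became 8.40%, 1.38% and 8.04%, in the same order. Median UMIs of members were 2389, 2951 and 3920 in the same order of libraries. A share is not a number of cells in a mass, and fewer of these cells cannot be told apart from more of the others.

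The other macrophage classes differed less between libraries. A-led cells made up 36.1% of Matrigel-only, 34.4% of Vehicle and 37.2% of Palo cells, and C-led cells 8.75%, 6.70% and 13.2%. Of all cells led by A, B or C, members were 19.5% (950 of 4861), 4.65% (110 of 2364) and 15.4% (671 of 4349). In all 15 versions of the rule and its limits that were tried, Vehicle had the lowest share of members and Palo a lower share than Matrigel-only. The ratio of Matrigel-only to Vehicle ran from 4.07 with Retnla taken out of the rule to 12.3 with a Retnla UMI required, and that of Palo to Vehicle from 3.57 to 9.66 in these same versions.

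**Figure D1:**
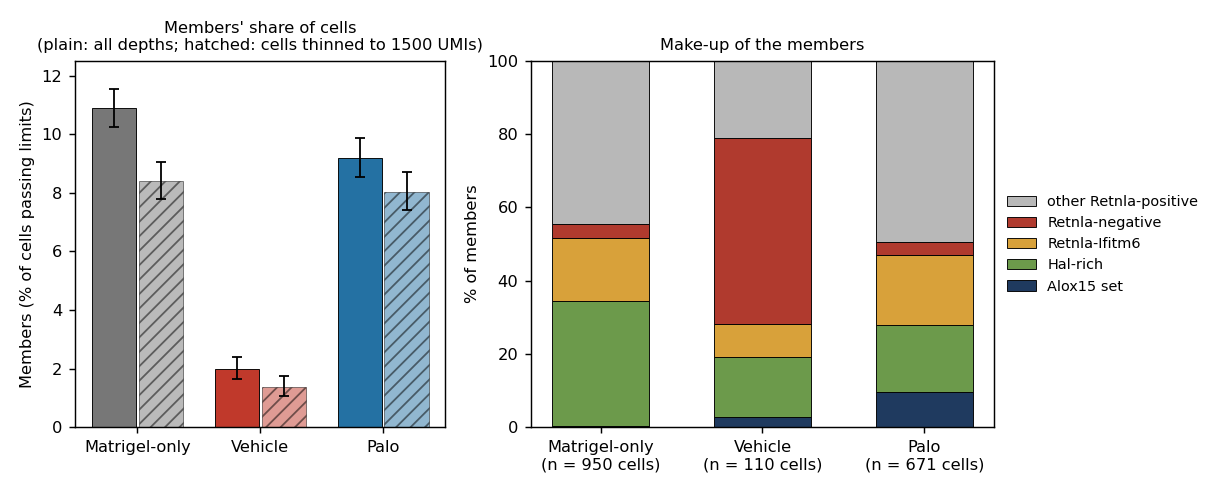
Left: share of cells that were members in each library, as percent of cells passing the gene and mitochondrial limits, for all depths (plain bars) and for cells thinned to 1500 UMIs (hatched bars), with 95% exact binomial intervals; Vehicle (2.01%) lies below Matrigel-only (10.9%) and Palo (9.20%) in both. Right: percent of the members of each library in 5 subsets, which shows the Retnla-negative subset at 50.9% of the 110 Vehicle members against 3.89% and 3.58% of those of Matrigel-only and Palo.

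The rule genes were not detected in the same mixture in each library. Retnla was detected in 94.5% of Matrigel-only, 41.8% of Vehicle and 88.2% of Palo members. Hal had the reverse order between the first pair, with 36.1%, 60.9% and 28.5%. Ltc4s was at 68.6%, 67.3% and 57.4%. The others were detected less often in Vehicle than in Matrigel-only, with Ifitm6 at 63.8%, 45.5% and 69.4%, Ednrb at 49.6%, 30.9% and 46.6%, and Fcna at 33.2%, 24.5% and 27.7%. Vehicle members also carried fewer of the 6 genes. Exactly 2 were detected in 63.6% of Vehicle members, against 33.8% in Matrigel-only and 33.7% in Palo, and all 6 in 7 Vehicle, 110 Matrigel-only and 34 Palo members. The most frequent combination was Retnla with Ifitm6 in Matrigel-only (163 members, 17.2%) and Palo (129 members, 19.2%), and Hal with Ltc4s, without Retnla, in Vehicle (30 members, 27.3%).

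As CPM (the UMIs of a gene over the summed UMIs of members, scaled to the same total in each library), Retnla stood at 24399, 4699 and 14411. Hal stood at 449.7, 509 and 207 CPM and was lowest in Palo. Ltc4s was at 689, 403 and 369 CPM, Fcna at 317, 136 and 205 CPM, Ednrb at 443, 264 and 311 CPM and Ifitm6 at 389, 161 and 342 CPM. A single UMI of Vehicle members is worth 2.47 CPM, against 0.382 in Matrigel-only and 0.353 in Palo, because the 110 Vehicle members hold 404940 UMIs against 2614958 and 2832432. Free RNA in the droplets gives some UMIs to cells that do not express a gene. In T and NK cells of the same libraries, Retnla was detected in 8.06% of 62 cells, 1.61% of 248 and 6.98% of 43, at median depths of 1274.5, 1964.5 and 1580 UMIs. Those cells were chosen for having more T and NK markers than genes of list A, B or C. That choice limits the list B genes they can hold. Retnla chose the members, so its higher share in them is set by the rule.

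Cells just inside and just outside the limits of the rule differed in level. Members with exactly 2 of the list B genes had 14642 CPM (321 cells), 1872 CPM (70 cells) and 10556 CPM (226 cells) of Retnla. Cells with 1 list B gene and none of lists A and C, which are not members, had 4203, 69.1 and 2589 CPM (146, 154 and 145 cells). Cells with at least 2 list B genes and as many of list A had 20817, 3807 and 10040.0 CPM (247, 63 and 148 cells). A larger set of cells with at least 2 list B genes was given to the other classes because more of their genes were detected, and these 1194, 295 and 1009 cells held 4292, 1941 and 4573 CPM of Retnla. The rule therefore cuts through a range of Retnla levels, and its edge lies where many cells are.

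Macrophages were also taken without the rule. Cells with at least 3 macrophage marker genes, whatever their list A, B or C genes, came to 5901, 3484 and 5355 in the same order. In these, Retnla was detected in 51.0%, 12.2% and 47.0% and stood at 7315, 788 and 4583 CPM. Ltc4s was detected in 26.1%, 11.9% and 21.7% of them, Ifitm6 in 20.5%, 6.31% and 21.8% and Ednrb in 26.5%, 9.79% and 20.3%, each lowest in Vehicle. Hal was detected in 18.9%, 16.3% and 12.1% and did not share that order. Assigning the same cells to the class whose mean profile, without the rule genes, they were nearest to gave 940, 1135 and 812 cells near the member profile, which is 15.9%, 32.6% and 15.2%, with Vehicle highest. The profiles were means over Matrigel-only and Palo alone, so Vehicle cells were matched to profiles made without their own library. The count near the member profile also differs from the rule in the cells counted, in the way of assignment and in leaving out the rule genes. Which of these moved the share was not tested. The Vehicle cells near the member profile had Retnla in 8.63% of cells, against 80.4% in Matrigel-only and 71.7% in Palo. Of the members themselves, 54.1%, 69.1% and 51.6% were nearest to their own profile, against 80.3% to 95.4% for A-led and C-led cells, so this profile marks members only loosely.

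The macrophage identity held up against markers. All 15 macrophage markers, among them Adgre1 (the F4/80 antigen), Csf1r (the receptor of the macrophage growth factor) and Cd68 (a lysosomal membrane protein), were above 0 in members of each library, and at least 3 were detected in 929 of 950 Matrigel-only, 110 of 110 Vehicle and 671 of 671 Palo members. None of the 15 was past 2-fold between any pair of libraries. Lyz2, the lysozyme of myeloid cells, was the most abundant at 16378, 14847 and 20119.8 CPM. Csf1r was at 722, 593 and 612 CPM and Adgre1 at 319.7, 254 and 440.3 CPM. Itgam, the CD11b chain, was at 598, 548 and 658 CPM.

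Whether members were recruited from blood was not measured by these data. Ccr2, the receptor that brings monocytes out of the marrow, was at 948, 961 and 1063 CPM, between the levels of A-led cells (471, 489 and 852 CPM) and C-led cells (1286, 1113 and 1443 CPM). Ly6c2 and Chil3, which mark inflammatory monocytes, were at or near 0 in Matrigel-only and Palo, but the monocyte list as a whole was not. Its 15 genes summed to 11991, 12296 and 11799 CPM, with Fn1 the most abundant. Of those tested, 6 of 11, 8 of 14 and 6 of 11 were 2-fold higher in members than in A-led cells, where 3.62%, 5.3% and 3.67% of all genes were, and 0, 1 and 1 were lower, where 3.06%, 4.12% and 3.4% of all genes were. Ly6c2 stood at 0.382, 79.0 and 0 CPM, where the 0 of Palo allows up to 1.06 CPM, and Chil3 at 2.68, 29.6 and 2.12 CPM. Markers of tissue macrophages were present beside them. Selenop, a selenium carrier, stood at 2956, 1069 and 1339 CPM and Mrc1, the mannose receptor, at 1342, 1042 and 719.5 CPM. As a list they were lower than in A-led cells. There 4 of 10, 4 of 9 and 7 of 10 tested were 2-fold lower and 0, 0 and 1 higher, beside the same shares of all genes. Over C-led cells 8 of 9, 7 of 9 and 9 of 10 were 2-fold higher, where 4.10%, 8.18% and 2.87% of all genes were, and 0 were lower. The cells are called members here, after the rule that chose them.

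Markers of other cell types were low in members. T and NK markers summed to 38.6, 14.8 and 14.5 CPM, and Nkg7, Ncr1 and Gzma were at 0 in each library. Neutrophil markers summed to 96.4, 71.6 and 68.1 CPM, with Ngp and Ltf at 0 in each library. Dendritic cell markers summed to 601, 677 and 830.4 CPM, most of it from Naaa, and 12, 0 and 21 members had at least 3 of them. Mesenchymal markers summed to 269.98, 419.8 and 165 CPM, led by Sparc. Endothelial markers summed to 3.82, 195 and 3.53 CPM and erythroid markers to 661, 27.2 and 7.06 CPM. For the most abundant genes behind the 195 CPM of endothelial and 661 CPM of erythroid markers, a single cell held 89.7% of the Vehicle UMIs of Pecam1 and 99.0% of the Matrigel-only UMIs of Hbb-bs. Dendritic and mesenchymal markers were spread more widely, with 2 or more in 176, 26 and 221 and in 94, 19 and 75 members. A single cell per gene held 100% of the Vehicle UMIs of Cdh5, Plvap and Ctla2a and 93.8% of those of Aqp1, genes of vessel walls. In Matrigel-only, a single cell per gene held 97.7% of the UMIs of the globin Hba-a1, 98.8% of those of the fatty acid carrier Fabp4 and 97.0% of those of the carbonic anhydrase Car3. Of these genes, Cdh5 and Hba-a1 are on the marker lists and the others are not.

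Members were not uniform, and 5 subsets, drawn up after the values had been seen, describe them. A Hal-rich subset with at least 3 of Hal, Ltc4s, Fcna and Ednrb held 324 Matrigel-only members (34.1%), 18 Vehicle members (16.4%) and 122 Palo members (18.2%). A Retnla-Ifitm6 subset, with those 2 genes and no other of list B, held 163, 10 and 129 members. A Retnla-negative subset held 37 (3.89%), 56 (50.9%) and 24 members (3.58%), and was made of members without a Retnla UMI that were in neither the Hal-rich subset nor the Alox15 set described next. A small set with at least 3 of 8 genes, called the Alox15 set, held 3, 3 and 65 members. Its 8 genes were Alox15, Prg4, F5, Selp, Slpi, Ptgis, Icam2 and Itga6. The remaining Retnla-positive members numbered 423, 23 and 331.

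Markers of tissue macrophages were higher in the Hal-rich than in the Retnla-Ifitm6 subset. Of the list of such markers, 10 of 10, 9 of 10 and 9 of 9 tested were 2-fold higher and 0 were lower, where 9.95%, 36.8% and 8.55% of all genes were higher. The Vehicle values rest on 18 and 10 cells. Lyve1, a hyaluronan receptor, stood at 539, 380.4 and 272 CPM in this subset, and at 0, 0 and 1.87 CPM in the Retnla-Ifitm6 subset. Folr2, a folate receptor, stood at 1486, 1522 and 958 CPM in the Hal-rich subset against 32.8, 59.0 and 18.7 CPM, and Gas6, a bridge between receptors and dying cells, at 763, 904 and 607 CPM against 4.37, 0 and 5.61 CPM. Cd209f, a C-type lectin, was at 820.3, 1015 and 249.7 CPM in Hal-rich members and at 0 in the Retnla-Ifitm6 subset of each library. C1qa, a chain of complement C1q, was at 4781, 5849 and 4627 CPM against 278, 236 and 379 CPM, and Apoe, the lipid carrier, at 20267, 15836 and 22172 CPM against 2504, 443 and 2898 CPM. Each of these was higher in the Hal-rich subset in every library. The rule itself bears on this contrast. A member has more list B than list A genes, so Retnla-Ifitm6 members, with 2 list B genes, had fewer than 2 of list A. Hal-rich members, with at least 3 list B genes, may hold more of list A. How much of the difference the rule sets was not tested.

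Class II antigen presentation genes were lower in the Hal-rich subset than in the Retnla-Ifitm6 subset. Of 8 tested, 8, 7 and 4 were 2-fold lower and 0 were higher, where 6.01%, 20.7% and 5.7% of all genes were lower. H2-Ab1, a class II major histocompatibility chain, stood at 7474, 6786 and 9890 CPM in it and at 1890, 2631 and 5510 CPM in Hal-rich members. Fn1, fibronectin, stood at 8851, 4779 and 6970 CPM against 2877, 1332 and 2590 CPM. Id2, a regulator that dimerizes with basic helix-loop-helix factors, stood at 1018, 502 and 803 CPM against 108, 95.1 and 173 CPM. Ccr2 was at 1344, 1033 and 1259 CPM against 657, 682 and 922 CPM, and Il1b, the inflammatory cytokine, at 107, 207 and 153 CPM against 2.997, 0 and 16.5 CPM. Each of these was higher in the Retnla-Ifitm6 subset in all 3 libraries, though the Vehicle values rest on 10 and 18 cells.

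**Figure D2:**
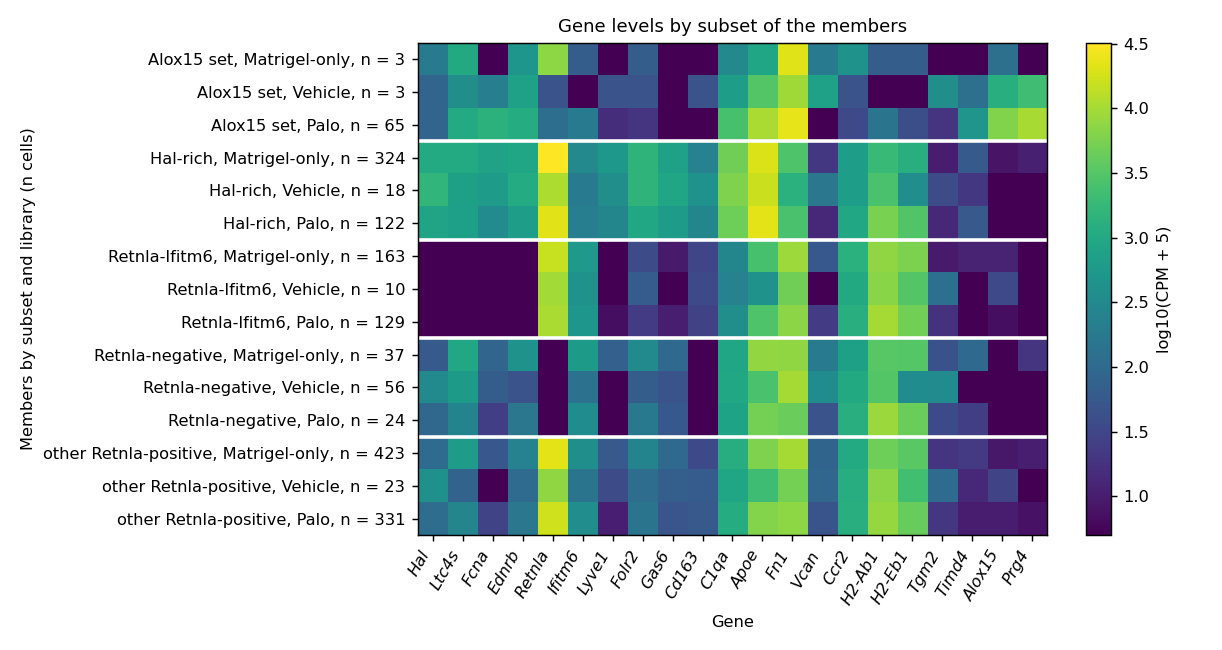
Colour gives log10(CPM + 5) of summed UMIs for the genes on the x axis in each of 5 subsets of members and each library on the y axis, with the number of cells. Hal-rich rows are brighter than Retnla-Ifitm6 rows for Lyve1, Folr2, Gas6 and C1qa, and the Retnla-negative Vehicle row (56 cells) is brighter than its neighbours for Tgm2. The Alox15 set of Palo (65 cells) is bright for Alox15 and Prg4, which are among the genes that chose it.

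The Retnla-negative Vehicle members were compared with the same subset of the other libraries. Tgm2, a transglutaminase that crosslinks proteins, stood at 340 CPM in these 56 cells, against 41.3 in the 37 such cells of Matrigel-only and 31.1 in the 24 of Palo, and Vcan, the proteoglycan versican of monocytes, at 352 CPM against 179 and 41.4. Egln3, the oxygen sensor induced by low oxygen, stood at 236 CPM against 41.3 and 10.4. H2-Eb1 was low in them, at 346 CPM against 3166 and 4483. Vehicle was also highest for Tgm2 and lowest for H2-Eb1 in the other macrophage classes, with Tgm2 at 5.57, 116 and 12.1 CPM in A-led and 7.51, 75.1 and 9.21 CPM in C-led cells, and Egln3 and H2-Eb1 are given for those classes further on. The member comparisons below were also made among members with a Retnla UMI alone, which numbered 898, 46 and 592, and among members with at least 3 list B genes. With a Retnla UMI, 7.13% of all genes were 2-fold higher and 6.61% lower in Vehicle than in Matrigel-only, and 10.6% were lower in Palo than in Vehicle. Among those with at least 3 list B genes, 8.69% were higher and 7.63% lower in Vehicle than in Matrigel-only.

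The Alox15 set lay mostly in Palo. In its 65 Palo members Alox15 (arachidonate 15-lipoxygenase) stood at 6055 CPM, Prg4 (lubricin) at 10069 CPM and the protease inhibitor Slpi at 3822 CPM. These genes were among those that chose the set, so their levels in it are given as a description only. The acute phase protein Saa3, which did not choose it, stood at 9651 CPM. Retnla stood at 113 CPM and H2-Ab1 at 142 CPM in these cells, against 10453 and 9890 CPM in the Retnla-Ifitm6 subset of Palo. Of the list B genes, Ltc4s stood at 1055 CPM in them, Fcna at 1378 CPM and Ednrb at 1124 CPM. With this set left out, the member share of Palo was 8.30%.

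Over all members, levels were compared between libraries as the log2 ratio of CPM + 5 for the 9361 genes with a mean of at least 5 CPM, a scale that understates the change of low genes. Intervals beside a log2 ratio are those of the ratio without the added 5. Called here means at least 2-fold. Vehicle over Matrigel-only, 541 genes were 2-fold higher (5.78% of genes) and 273 were 2-fold lower (2.92%). Palo over Vehicle, 257 were higher (2.75%) and 703 lower (7.51%). Palo over Matrigel-only, 84 were higher (0.897%) and 153 lower (1.63%). The median log2 ratio of all genes was 0.11, -0.22 and -0.11 in these comparisons, and lists are read against it. Scaling by TMM factors moved these medians to -0.05, 0.06 and 0.01 and the counts to 366 higher and 385 lower, 470 higher and 380 lower, and 109 higher and 123 lower, so the balance of higher against lower calls depends on the scaling. It also turned when the top cell of each gene was left out, to 261 higher and 520.0 lower for Vehicle over Matrigel-only and 463 higher and 370 lower for Palo over Vehicle. The comparisons share libraries and are not independent of each other.

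Of the genes of arginine and histidine use, some were higher in Vehicle. Of 13 tested, 4 were 2-fold higher in Vehicle than in Matrigel-only (5.78% of all genes) and 4 were 2-fold lower in Palo than in Vehicle (7.51%). For Vehicle over Matrigel-only with at least 3 list B genes, 1 of 13 was 2-fold higher and 2 lower (8.69% and 7.63% of all genes). The higher count was near that of all genes there, and the median log2 ratio was 0.12 in place of 0.40. When a Retnla UMI was required, 5 of 13 were higher and 1 lower (7.13% and 6.61% of all genes), with a median of 0.40. Palo over Vehicle, 2 were higher and 4 lower with at least 3 list B genes (705 and 1021 of 9369 genes). With a Retnla UMI these counts were 1 and 7 (572 and 990 of 9325 genes). Ass1, which makes argininosuccinate in the recycling of arginine, stood at 4.21, 49.4 and 4.59 CPM. Slc7a2, a cationic amino acid transporter, stood at 21.4, 133 and 28.2 CPM, with 50% of the Vehicle UMIs in 1 cell. Nos2, the inducible nitric oxide synthase, was at 0.382 CPM in Matrigel-only and at 0 in the others, where 0 allows up to 7.41 CPM in Vehicle and 1.06 CPM in Palo. Downstream of Hal, Uroc1 and Ftcd were at 0 in each library.

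Some genes of alternative activation were lower in Palo. Of 15 tested, 4 were 2-fold higher and 1 lower in Vehicle than in Matrigel-only (5.78% and 2.92% of all genes), with a median log2 ratio of -0.13. In Palo, 1 was higher and 6 lower than in Vehicle (2.75% and 7.51% of all genes, median -0.43), and 0 were higher and 4 lower than in Matrigel-only (0.897% and 1.63%, median -0.24). Tgm2 stood at 9.56, 205 and 14.1 CPM, a log2 ratio of 3.85 (3.76 to 5.13) for Vehicle over Matrigel-only and -3.46 (-4.44 to -3.30) for Palo over Vehicle, and was detected in 2.11%, 34.5% and 5.07% of members. Clec10a, a galactose-binding lectin, stood at 601, 566 and 249.96 CPM and Mgl2, its paralog, at 169, 168 and 74.5 CPM, both at a like level in Matrigel-only and Vehicle and lower in Palo. Il4ra, the receptor chain for interleukin 4 and interleukin 13, stood at 286, 227 and 207 CPM and Stat6 at 90.2, 104 and 75.9 CPM, neither past 2-fold.

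Genes induced by low oxygen were lower in Palo members. When oxygen is scarce, HIF transcription factors bind an ACGTG core and raise glucose uptake, glycolysis, mitophagy and the prolyl hydroxylases that in turn switch HIF off. The promoters of 3 such genes that were low in Palo are shown with each ACGTG on either strand in capitals, over 250 bases before to 50 after the RefSeq start on GRCm38.p6. They are Bnip3 (chr7:138909457-138909756, minus strand, overlapping matches at -108 and -107 from the start), Egln3 (chr12:54203825-54204124, minus strand, at -229) and Slc16a3 (chr11:120948817-120949116, plus strand, at -27 and -14).
Bnip3: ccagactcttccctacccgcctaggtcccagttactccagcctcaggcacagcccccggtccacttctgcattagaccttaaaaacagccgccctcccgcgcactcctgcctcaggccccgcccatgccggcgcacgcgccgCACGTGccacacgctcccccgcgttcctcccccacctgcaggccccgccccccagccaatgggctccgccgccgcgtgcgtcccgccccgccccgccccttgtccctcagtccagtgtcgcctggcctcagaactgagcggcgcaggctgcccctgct
Egln3: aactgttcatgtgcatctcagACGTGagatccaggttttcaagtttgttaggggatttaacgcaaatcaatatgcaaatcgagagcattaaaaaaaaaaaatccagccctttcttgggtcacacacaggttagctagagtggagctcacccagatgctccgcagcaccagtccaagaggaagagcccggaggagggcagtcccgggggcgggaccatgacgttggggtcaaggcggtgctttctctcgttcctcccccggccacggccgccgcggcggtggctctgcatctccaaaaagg
Slc16a3: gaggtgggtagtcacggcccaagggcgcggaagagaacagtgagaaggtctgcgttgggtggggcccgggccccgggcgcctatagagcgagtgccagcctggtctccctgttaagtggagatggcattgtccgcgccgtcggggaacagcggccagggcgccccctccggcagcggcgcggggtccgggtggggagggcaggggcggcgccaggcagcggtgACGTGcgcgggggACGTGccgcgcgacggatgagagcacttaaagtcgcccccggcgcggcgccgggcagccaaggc
The core was found in 13 of the 21 promoters of the hypoxia list (61.9%, some genes having more than 1 start), 14 of the 26 of the glycolysis list and 0 of the 6 of list B, and in 19.6% of all promoters in the table (6447 of 32851). The list is made of genes known for this response, so the higher share is a description of it.

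Of 16 genes of the hypoxia list that were tested, 11 were 2-fold lower in Palo than in Vehicle members and 9 lower than in Matrigel-only, and 0 were higher in either. The background shares of 2-fold lower genes are the 7.51% and 1.63% given above. The median log2 ratio was -1.22 against -0.22 for all genes, and -1.13 against -0.11. Bnip3, a mitophagy receptor, stood at 204 CPM (interval 187 to 222), 185 CPM (146 to 232) and 33.9 CPM (27.5 to 41.4), and was detected in 34.9%, 36.4% and 11.5% of members. Matrigel-only and Vehicle overlapped in their intervals, and Palo lay well below both, with log2 ratios of -2.43 (-2.92 to -2.28) over Matrigel-only and -2.29 (-2.90 to -1.99) over Vehicle.

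Egln3 stood at 38.6 CPM (31.5 to 46.9), 116 CPM (85.3 to 154) and 6.00 CPM (3.50 to 9.61). It was the 1 gene of the list 2-fold higher in Vehicle than in Matrigel-only, but its log2 ratio there turned to -0.59 among members with at least 3 list B genes and to -0.61 among those with a Retnla UMI. Slc2a1, the main glucose transporter, stood at 89.5, 138 and 33.5 CPM, and its log2 ratio of Vehicle over Matrigel-only turned to -0.16 and -0.63 in these sets. P4ha1, which hydroxylates proline in collagen, stood at 166, 219.8 and 68.5 CPM and Ero1l, an oxidase of protein folding, at 89.9, 88.9 and 26.1 CPM. Vegfa, the vessel growth factor, stood at 27.9, 54.3 and 7.77 CPM. Pdk1, a kinase that inhibits pyruvate dehydrogenase, stood at 66.9, 81.5 and 36.0 CPM and Mxi1, a partner of MAX, at 65.4, 51.9 and 22.6 CPM. All of these were lowest in Palo. Bnip3l, the paralog of Bnip3, was within 2-fold at 187, 190.2 and 171 CPM.

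For Egln3 and Bnip3, the low values in Palo were shared with the other macrophage classes. The list as a whole was not compared between libraries in those classes. Egln3 stood at 22.7, 66.1 and 2.30 CPM in A-led and 14.7, 19.0 and 2.14 CPM in C-led cells, and Bnip3 at 128, 235 and 56.3 CPM and 92.8, 144 and 26.3 CPM. Hif1a itself stood at 85.3, 230 and 69.9 CPM in members, highest in Vehicle. Among members with a Retnla UMI, 6 of 16 genes were 2-fold lower in Palo than in Vehicle, where 10.6% of all genes were, and the median of the list was -0.50 against -0.20 for all genes, and -0.59 for Vehicle over Matrigel-only in place of 0.23. In Hal-rich members, Palo over Matrigel-only was -0.57. With at least 3 list B genes, Palo over Vehicle was -0.72. Palo over Matrigel-only was -0.98 with at least 3 list B genes and -1.03 with a Retnla UMI, in place of -1.13 over all members. In each of these sets 8 of 16 genes were 2-fold lower than in Matrigel-only (175 of 9369 and 166 of 9325 genes). The median for Palo thus kept its sign in these sets. It was nearer to 0, most so over Vehicle and in Hal-rich members.

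Genes of glycolysis were lower in Palo in part, depending on the cells taken. Of 17 tested, 5 were 2-fold lower in Palo than in Vehicle (7.51% of all genes, median log2 ratio -0.59). Palo over Matrigel-only, 1 was higher and 2 lower (0.897% and 1.63% of all genes, median -0.55). Among members with at least 3 list B genes the median for Palo over Vehicle was -0.12 against -0.17 for all genes. Among those with a Retnla UMI it was -0.13 against -0.20, so that it was not below all genes in either set. Over Matrigel-only, the median in these sets was -0.40 and -0.51, against -0.10 and -0.11 for all genes. In Hal-rich members it was -0.15 against -0.08. Slc16a3, the lactate exporter MCT4, stood at 339.6 CPM (318 to 363), 370.4 CPM (314 to 435) and 119 CPM (107 to 133), a log2 ratio of -1.59 (-1.92 to -1.35) for Palo over Vehicle. Hk2, the inducible hexokinase, stood at 150.3, 230 and 89.7 CPM and Pgam1, phosphoglycerate mutase, at 523, 677 and 335 CPM. Gapdh stood at 1847, 2344 and 2174 CPM and was within 2-fold. Eno1, enolase, was the 1 higher gene at 103, 215 and 211 CPM, and since mouse enolase has a near-identical copy its counts are uncertain. Of 14 genes of the respiratory chain, 0 were past 2-fold in any comparison.

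**Figure D3:**
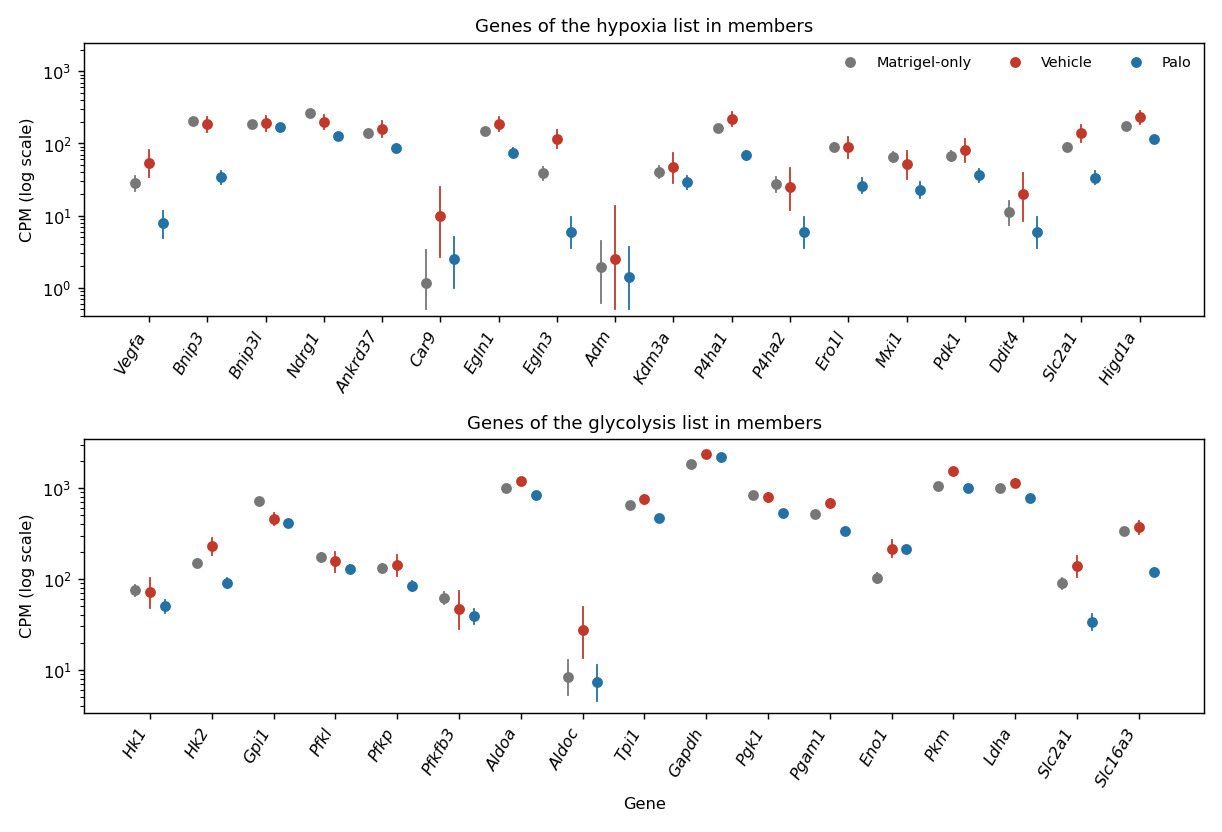
CPM of summed UMIs (log scale) of each gene of the hypoxia list (top) and the glycolysis list (bottom) in members of the Matrigel-only, Vehicle and Palo libraries, with 95% exact Poisson intervals as lines; Slc2a1 is on both lists. Palo points lie lowest for Bnip3 (33.9 CPM), Egln3 (6.00 CPM) and Slc16a3 (119 CPM), while Bnip3l and Gapdh lie close together.

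Some markers of tissue macrophages were highest in Matrigel-only. Of 10 tested, 5 were 2-fold lower in Vehicle (2.92% of all genes, median log2 ratio -0.99), and 6 were lower and 1 higher in Palo than in Matrigel-only (1.63% and 0.897% of all genes, median -1.22). Lyve1 stood at 229 CPM (211.5 to 248.6), 71.6 (48.0 to 103) and 50.8 (42.9 to 59.9), detected in 24.5%, 10.0% and 7.60% of members. Folr2 stood at 688, 301 and 245 CPM, Gas6 at 334, 178 and 130 CPM and Igf1, the insulin-like growth factor, at 101, 37.0 and 31.4 CPM. These 4 were highest in Matrigel-only. Vsig4, a complement receptor, went the other way between the ends, at 4.59, 2.47 and 33.2 CPM. The share of Hal-rich members moved with this list, at 34.1%, 16.4% and 18.2%, and within that subset Folr2 was at 1486, 1522 and 958 CPM. With at least 3 list B genes, 1 of 10 was 2-fold lower in Vehicle than in Matrigel-only (median -0.35), and with a Retnla UMI required also 1 of 10 (median -0.68), where 7.63% and 6.61% of all genes were, so that the count for Vehicle was largely lost in these sets.

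Genes of monocytes were partly higher in Vehicle. Of 14 tested, 7 were 2-fold higher and 3 lower in Vehicle than in Matrigel-only (5.78% and 2.92% of all genes, median log2 ratio 1.06). In Palo, 2 were higher and 7 lower than in Vehicle (2.75% and 7.51% of all genes, median -1.24). With at least 3 list B genes these medians were -0.12 and -0.20, and 3 of 13 were higher and 2 lower in each comparison. Of all genes, 8.69% and 7.63% were in the first comparison, and 705 and 1021 of 9369 in the second. When a Retnla UMI was required the medians were 0.52 and -0.27. Then 4 of 14 were higher and 2 lower (7.13% and 6.61% of all genes), and 2 higher and 5 lower (572 and 990 of 9325 genes). Vcan stood at 53.9, 237 and 28.2 CPM and Cx3cr1, the fractalkine receptor, at 66.9, 230 and 42.7 CPM, detected in 12%, 37.3% and 12.8% of members. Spn, CD43, stood at 9.94, 69.1 and 20.5 CPM, again highest in Vehicle. F13a1, the transglutaminase of clotting factor XIII, stood at 2115, 906 and 1004 CPM and was highest in Matrigel-only. S100a4, a calcium-binding protein, stood at 1393, 2677 and 1386 CPM and Fn1 at 6968, 6638 and 7942 CPM, both within 2-fold.

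Interferon-induced genes were also partly higher in Vehicle. Of 14 tested, 6 were 2-fold higher in Vehicle than in Matrigel-only (5.78% of all genes, median log2 ratio 0.72). In Palo, 9 were 2-fold lower than in Vehicle (7.51% of all genes, median -1.13). When at least 3 list B genes were required, 2 of 13 were 2-fold higher in Vehicle than in Matrigel-only (8.69% of all genes, median 0.29). When a Retnla UMI was required, 7 of 14 were (7.13% of all genes, median 0.76). Palo over Vehicle, 10 of 13 and 9 of 14 were 2-fold lower in these sets, with medians of -1.16 and -1.36. Of all genes, 1021 of 9369 and 990 of 9325 were lower there. Isg15, a ubiquitin-like modifier, stood at 47.0, 136 and 31.8 CPM and Gbp2, a guanylate-binding protein, at 92.5, 267 and 119 CPM. Vehicle was highest in each. Cxcl10 stood at 3.06, 148 and 2.12 CPM, with 51.7% of the Vehicle UMIs in 1 cell and 5 of the 110 cells positive (4.55%). Ifi27l2a, the most abundant of the list, stood at 1711, 1761 and 1204 CPM and was within 2-fold. In A-led cells, Isg15 stood at 70.6, 201 and 75.9 CPM, again highest in Vehicle.

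Some class II antigen presentation genes were higher in Palo. Of 8 tested, 2 were 2-fold higher in Palo than in Vehicle (2.75% of all genes, median log2 ratio 0.66). Over Matrigel-only 0 were past 2-fold (0.897% of all genes were higher and 1.63% lower, median 0.59). When at least 3 list B genes were required, 1 of 8 was higher than in Vehicle (705 of 9369 genes) and 2 higher than in Matrigel-only (119 of 9369). When a Retnla UMI was required these counts were 1 and 0 (572 and 58 of 9325 genes). In Hal-rich members the median of Palo over Matrigel-only was 1.21. H2-Ab1 stood at 4034, 4255 and 7242 CPM, Cd74, the invariant chain, at 9633, 9604 and 16701 CPM and Ciita, the regulator of the class, at 113, 131 and 166 CPM, while H2-DMb2 stood at 60.04, 49.4 and 48.0 CPM. H2-Eb1 stood at 2958, 1124 and 3736 CPM and was detected in 68.1%, 30.0% and 80.5% of members, so that it was low in Vehicle, where H2-Ab1 was not. The same was seen in A-led cells, with 2491, 662 and 2840 CPM of H2-Eb1, and in C-led cells, with 8178, 2229 and 5548 CPM. Animals of an outbred stock can differ at these polymorphic genes, and the part of that in these values was not tested.

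Some chemokines were lower in Vehicle members. Of 12 tested, 2 were 2-fold higher and 6 lower in Vehicle than in Matrigel-only (5.78% and 2.92% of all genes, median log2 ratio -0.96). In Palo, 6 were higher and 2 lower than in Vehicle (2.75% and 7.51% of all genes, median 0.94). With at least 3 list B genes, 3 of 11 were 2-fold lower and 0 higher in Vehicle than in Matrigel-only, where 7.63% of all genes were lower and 8.69% higher. With a Retnla UMI required 3 of 12 were lower and 2 higher, where 6.61% and 7.13% of all genes were. Palo over Vehicle, 5 of 11 were higher and 0 lower in the first of these sets (705 and 1021 of 9369 genes). In the second, 4 of 12 were higher and 1 lower (572 and 990 of 9325 genes). Ccl6, a ligand of CCR1, was among the most abundant at 6292, 2220 and 3828 CPM, detected in 97.4%, 62.7% and 99.1% of members, and Ccl9, of the same group, stood at 2529.7, 1245 and 1968 CPM. Both were higher in members than in A-led cells, where Ccl6 stood at 1330.2, 1024 and 1406 CPM. Ccl24 (eotaxin-2), which calls eosinophils, stood at 737, 311 and 335 CPM and Ccl2, which calls monocytes, at 166, 71.6 and 103 CPM. Cxcl2, which calls neutrophils, stood at 336, 76.6 and 497 CPM. Cxcl16 was an exception, at 68.8, 222 and 105 CPM. Of 7 chemokine receptors tested, 3 were 2-fold higher and 1 lower in Vehicle than in Matrigel-only (5.78% and 2.92% of all genes). In Palo, 1 was higher and 4 lower than in Vehicle (2.75% and 7.51% of all genes). Ccrl2, an atypical receptor, stood at 46.7, 17.3 and 90.7 CPM. Immediate early genes also answer to tissue digestion. Of 11 such genes tested, 0 were 2-fold higher and 2 lower in Vehicle than in Matrigel-only (5.78% and 2.92% of all genes). In Palo, 4 were higher and 0 lower than in Vehicle (2.75% and 7.51% of all genes). Fos, at 457, 405 and 535 CPM, was within 2-fold.

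The genes with the largest ratios were named whether or not they were on a list. Among genes detected in at least 10% of members of the higher library, the largest ratios of Vehicle over Matrigel-only were those of F11r, a junction adhesion molecule, at 1.53, 104 and 6.00 CPM, and Olr1, the receptor of oxidized LDL, at 0.382, 84.0 and 3.88 CPM. Gbp4 stood at 1.53, 88.9 and 3.53 CPM, Itgal, the LFA-1 chain, at 8.41, 121 and 10.9 CPM, Timp1, an inhibitor of matrix proteases, at 9.18, 141 and 15.5 CPM, and Mmp14, a membrane-bound matrix protease, at 2.68, 64.2 and 2.47 CPM. All 6 were high in Vehicle and low in both others. The smallest ratio of this comparison was that of Rnase2a, an eosinophil-type ribonuclease with close paralogs, at 174, 14.8 and 55.1 CPM. Palo over Vehicle, the largest ratios were those of Saa3, at 314, 148 and 1204 CPM with 66.7% of the Vehicle UMIs in 1 cell, and of Prg4 and Alox15. Bcam, an adhesion molecule that binds laminin, stood at 98.7, 14.8 and 101 CPM and F5, coagulation factor V, at 41.3, 34.6 and 183 CPM. Saa3 was high in the Alox15 set of Palo, and F5 is among the genes that chose that set. How much of the Saa3 and F5 ratios rests on its cells was not tested. Among the smallest ratios were those of Fxyd7, a regulator of the sodium pump, at 2.68, 81.5 and 2.47 CPM, Kazald1 at 11.5, 138 and 7.77 CPM and Atp2b4, a calcium pump of the plasma membrane, at 12.2, 151 and 9.18 CPM. These 3 were high in Vehicle and low in both others. Palo over Matrigel-only, the largest ratios were those of Prg4, at 4.97, 131 and 979 CPM, and Alox15, at 4.59, 86.4 and 591 CPM, and without the Alox15 set these ratios were below 1. Cd209f (333, 163 and 44.5 CPM) and Mmp9, a gelatinase (69.2, 24.7 and 7.41 CPM), were at the other end.

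Palovarotene acts through a retinoic acid receptor, and the genes of that pathway were read next. Rarg, which encodes that receptor, stood at 41.7, 46.9 and 45.2 CPM, and Rara at 79.9, 76.6 and 39.9 CPM. Dhrs3, a retinaldehyde reductase, stood at 289, 215 and 326 CPM. Cyp26a1, the retinoic acid hydroxylase that retinoids induce, was at 0 in Matrigel-only and Vehicle and at 2.82 CPM in Palo, from 0.596% of members. Of 8 retinoid genes tested, 0 were past 2-fold in Palo over Matrigel-only. Tgm2, which retinoids also induce, was more than 2-fold higher in Vehicle than in Matrigel-only and more than 2-fold lower in Palo than in Vehicle. Aldh1a2, which makes retinoic acid, stood at 35.2, 0 and 29.3 CPM, where the 0 of Vehicle allows up to 7.41 CPM. Of the BMP target genes, Id1 stood at 2.29, 27.2 and 8.12 CPM with 72.7% of the Vehicle UMIs in 1 cell, Smad7 at 6.50, 32.1 and 9.89 CPM, and Id2 at 445, 336 and 578 CPM.

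Of the remaining groups, complement and lectin genes had 0 of 12 past 2-fold between Matrigel-only and Vehicle, with C1qa at 2389, 1629.9 and 1706 CPM, and C4b at 468, 306 and 978 CPM was the 1 gene 2-fold higher in Palo than in each of the others. Of the eicosanoid genes, Alox5ap, which hands arachidonate to 5-lipoxygenase upstream of Ltc4s, stood at 1066, 929 and 1299 CPM and Alox5 at 81.5, 111 and 72.0 CPM, and Alox15 alone was past 2-fold. Of 13 genes of the clearance of dying cells tested, 4 were 2-fold higher and 1 lower in Vehicle than in Matrigel-only. Of all genes 5.78% and 2.92% were, and the list had a median log2 ratio of 0.089. In Palo, 2 were higher and 3 lower than in Vehicle (2.75% and 7.51% of all genes, median -0.29). When a Retnla UMI was required, 2 of 12 were higher and 2 lower in Vehicle than in Matrigel-only. The median was then -0.05, and 7.13% and 6.61% of all genes were past these limits. When at least 3 list B genes were required, 3 of 14 were higher and 0 lower (8.69% and 7.63% of all genes, median 0.12). Among the clearance genes, Trem2 stood at 65.8, 69.1 and 201 CPM, highest in Palo. Msr1, a scavenger receptor, stood at 127, 309 and 122 CPM, highest in Vehicle. Abca1, which exports cholesterol, stood at 241, 227 and 98.5 CPM and Trem2 partner Tyrobp at 1647, 1568 and 2389 CPM. Of the osteoclast genes, Calcr and Oscar were at 0 and Ctsk, cathepsin K, stood at 2.68, 19.8 and 4.59 CPM. Inflammatory cytokines were low, with Il1b at 44.4, 76.6 and 78.0 CPM, Tnf at 38.2, 22.2 and 47.7 CPM and Il12b at or near 0.

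Beside A-led cells, members had more Fn1, with 6968, 6638 and 7942 CPM in members and 458, 1609 and 695 CPM in A-led cells. The 10 genes that stood highest over A-led cells in each library were Hopx, Cd24a, Lyz1, Hr, Cd9, Saa3, Plxdc2, Crip1, Adgre5 and Fn1. Hopx, a homeodomain protein that binds no DNA, stood at 220.3, 291 and 251 CPM against 17.1, 35.9 and 30.2 CPM, and Crip1, a LIM protein, at 5847, 7290.0 and 4954 CPM against 1135, 1676 and 1036 CPM. At the other end lay Fads1, Igf1, Fchsd2, Gpr183, Tmem8, Gja1, Cd63, Npl, Hpgds and Ccl7. Hpgds, the prostaglandin D synthase, stood at 15.3, 17.3 and 20.8 CPM against 129, 66.1 and 151 CPM. These differences separate classes that the rule itself set apart and are given with no test.

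Beside C-led cells, the highest genes were Folr2, Gas6, Cd209f, Selenop, Fxyd2, Maf, Saa3, Lyve1, Igfbp4 and C4b. Selenop stood at 2956, 1069 and 1339 CPM in members and 141, 80.8 and 157 CPM in C-led cells, and Maf, a factor of tissue macrophages, at 785, 524 and 317 CPM against 53.1, 56.9 and 38.5 CPM. The lowest were Klrb1b, Slc27a3, Cadm1, Gpr171, Il7r, Rgs1, Axl, Slc7a11, Lmo1 and Mucl1. Axl, a receptor of Gas6, stood at 25.2, 27.2 and 56.8 CPM against 132, 132 and 174 CPM. Class II genes were lower in members than in C-led cells, 8, 7 and 1 of 8 by 2-fold, where 1.92%, 3.66% and 0.905% of all genes were lower. They were higher than in A-led cells, 3, 3 and 4 of 8, where 3.62%, 5.3% and 3.67% of all genes were higher.

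**Figure D4:**
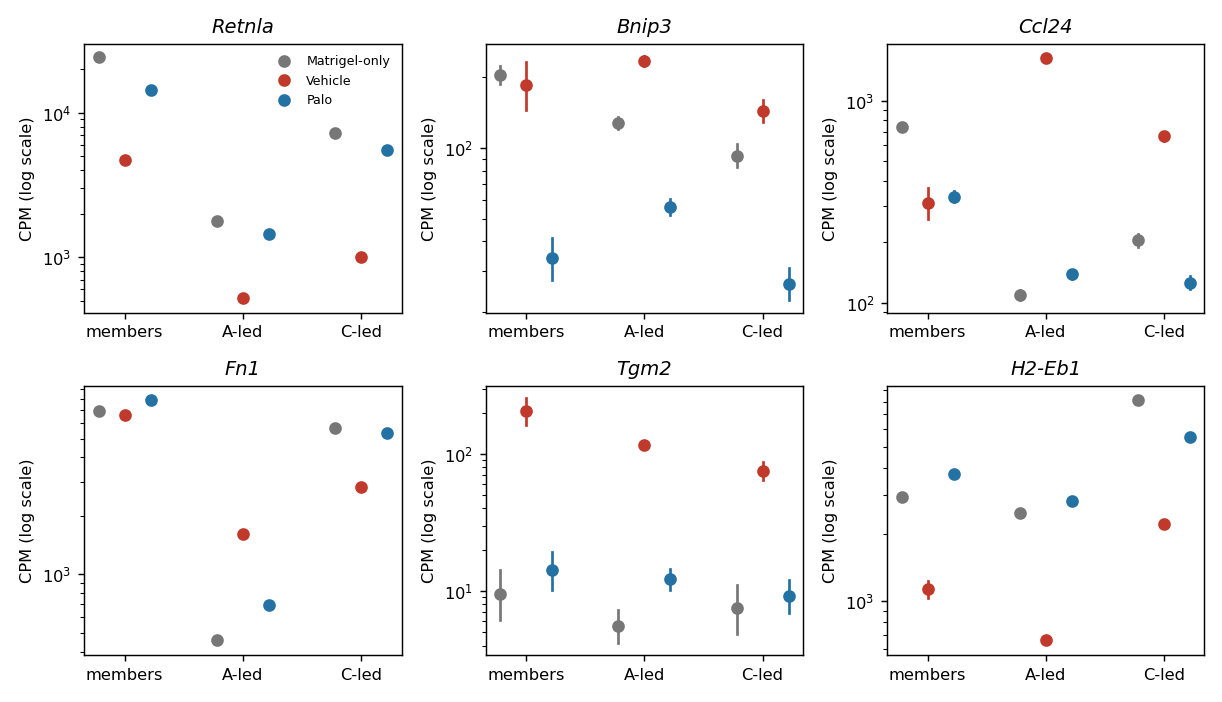
CPM of summed UMIs (log scale) of 6 genes in members, A-led and C-led cells of each library, with 95% exact Poisson intervals as lines. Tgm2 is highest in Vehicle in all classes (205 CPM in members), while Ccl24 is highest in Matrigel-only among members (737 CPM) and in Vehicle among A-led and C-led cells.

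Across the 9 combinations of class and library, the genes whose level was most like that of Retnla were Gda, guanine deaminase (Pearson r = 0.985), Grk6 (0.972), Ptafr (0.951), Ms4a8a (0.9496) and AI467606 (0.949). Gda stood at 931, 612 and 821 CPM in members, 381, 218 and 346 CPM in A-led and 603, 255 and 633 CPM in C-led cells. The 9 points share 3 libraries, and Retnla chose the members, so these values describe likeness alone.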

How the data were processed

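Droplet RNA libraries were made from the pooled cells of 1 library per condition, and the authors deposited whole-number UMI counts of 31053 genes per barcode from Cell Ranger 3.0.2 on mm10 (the submitters' processing notes also name Seurat 3). The deposited counts were used as they stand. Cells, members and classes were taken by the limits given in the report, without removal of doublets. Scrublet called 684, 294 and 500 barcodes (7.40%, 4.85% and 6.33%) in Matrigel-only, Vehicle and Palo, and leaving them out was an alternative. UMIs were summed over the members of a library and divided by their total (CPM), so these values rest on 2614958, 404940 and 2832432 UMIs. Genes with a mean of at least 5 CPM were compared as the log2 ratio of CPM + 5, and 2-fold was the limit for a call. With 1 library per condition no test between conditions was possible. Intervals are exact binomial, Newcombe, exact Poisson and conditional binomial at 95%, and a count of 0 was read as up to 3 counts. All cover counting error only.

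The members and the gene lists were chosen with earlier results of these data known. Genes were named if they were on a list or among the 10 largest or smallest ratios of a comparison with at least 50 CPM in the higher library, leaving out the genes of the rule, mitochondrial genes and ribosomal protein genes. Beside the other classes, the 10 genes on each side whose weakest ratio over the 3 libraries was furthest from 1 were named. A limit of detection in 10% of members of the higher library was added after single cells were seen to set several of these ratios. Some genes of the lists are not reported here. The 5 subsets were also drawn up after the values were seen. Likeness to Retnla was Pearson's r over 9 groups of cells. The calculation of ratios was tested on simulated data. Promoters were taken from RefSeq (GRCm38.p6) and gene positions from GENCODE M21. Alternatives were the pseudocount, the filter on low values, TMM scaling, per-cell means, thinning to 1500 UMIs, each limit of the rule and each gene of list B. Python 3.11.15, numpy 2.4.6, scipy 1.17.1, pandas 2.3.3, scanpy 1.11.5, matplotlib 3.10.9 and, for TMM factors alone, edgeR 4.0.16 were used.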

Additional observations from a re-analysis of the deposited data

Results flagged for a closer look

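In 5 cases the members of a library moved one way between conditions and another macrophage class the opposite way, and with 1 library per condition none of these differences was tested. Ccl24 went from 737 CPM in Matrigel-only to 311 in Vehicle members while A-led cells went from 109 to 1626 CPM, a difference of -5.07 between the log2 ratios. Against C-led cells, where Ccl24 went from 204 to 665 CPM, that difference was -2.91. Ccl2 went from 166 to 71.6 CPM in members and from 51.9 to 144 CPM in C-led cells between the same libraries, a difference of -2.55. Alox15 went from 86.4 CPM in Vehicle to 591 in Palo members and from 69.5 to 6.75 CPM in C-led cells, a difference of 5.37, and the Palo value rests on the 65 members of the Alox15 set. Ccl4 went from 14.8 to 61.8 CPM in members and from 192 to 50.2 CPM in C-led cells between those libraries, a difference of 3.59.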

How the results depend on the processing

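No paired analysis was possible because each condition had 1 library. The share of members in Matrigel-only, Vehicle and Palo was 8.40%, 1.38% and 8.04% with cells thinned, 7.21%, 0.730% and 6.10% with at least 3 list B genes, 9.15%, 0.986% and 8.10% without Hal in the rule, 7.72%, 0.894% and 7.30% without Ltc4s, 5.20%, 1.28% and 4.56% without Retnla, 8.62%, 1.53% and 7.46% without Ednrb and 7.52%, 1.28% and 5.77% without Ifitm6. It was 9.45% in Matrigel-only and 8.32% in Palo without Fcna, 8.30% in Palo without the Alox15 set, and 0.840% in Vehicle and 8.11% in Palo with a Retnla UMI required. Vehicle stayed lowest in each. The counts of genes past 2-fold also depended on the setting. For Vehicle over Matrigel-only (541 higher, 273 lower), the higher count was 183 with a pseudocount of 20, 242 with a minimum of 20 CPM, 1205 with thinning, 814 with at least 3 list B genes and 261 without the top cell of each gene. The lower count was 479 with a pseudocount of 1, and under the settings just listed 60, 108, 1135, 715 and 520.0, with 415 for per-cell means and 616 with a Retnla UMI required. For Palo over Vehicle (257 higher, 703 lower), the higher count was 443, 68 and 117 with pseudocounts of 1 and 20 and the CPM minimum, 470 with TMM, 1087 with thinning, 705 with at least 3 list B genes, 572 with a Retnla UMI and 463 without the top cell. The lower count was 1146, 248 and 367 in the first 3 of these, 380 with TMM, 1532 with thinning and 370 without the top cell. For Palo over Matrigel-only (84 higher, 153 lower), the counts were 163 and 334 with a pseudocount of 1, 41 and 56 with 20, 48 and 92 with the CPM minimum, 169 and 246 with thinning, and 178 and 385 in Hal-rich members, and 51 were higher without the Alox15 set. With at least 3 list B genes and with a Retnla UMI required, the median log2 ratios of Vehicle over Matrigel-only were -0.17 and -0.59 for hypoxia and -0.18 and -0.38 for glycolysis genes, and -0.35 for tissue macrophage markers with at least 3. For Palo over Vehicle they were -0.72 and -0.50, -0.12 and -0.13, and, for tissue macrophage markers, -0.93 and -0.77. Respiratory chain genes gave -0.13 with TMM, 0.20 with per-cell means and -0.0704 with thinning for Vehicle over Matrigel-only, and 0.12 with TMM and 0.0759 with thinning for Palo over Vehicle, where macrophage markers gave 0.48 with TMM. For Palo over Matrigel-only, Hal-rich members gave -0.57 for hypoxia, -0.15 for glycolysis, 1.21 for class II and 1.03 for chemokine genes, per-cell means -0.68 for glycolysis and at least 3 list B genes -0.90 for interferon genes. Of single genes, the log2 ratio of Vehicle over Matrigel-only turned for Egln3 (-0.59) and Slc2a1 (-0.16) with at least 3 list B genes, for Egln3 (-0.61) and Slc2a1 (-0.63) with a Retnla UMI required, and for Prg4 without doublets (-1.06), without the Alox15 set (-1.0004) and with a Retnla UMI required (-0.97). Palo over Vehicle turned for Folr2 with TMM (0.035) and for Alox15 without the Alox15 set (-0.93), and Palo over Matrigel-only turned for Prg4 (-0.61) and Alox15 (-0.12) without that set and, in Hal-rich members, for Prg4 (-1.14) and Alox15 (-0.68). The cause of these changes was not tested. Of the single-gene values under the alternatives, 467 lay within the counting interval of the value given in the report, 223 lay outside it, and the 13 just listed turned. The 110 Vehicle members, where 1 UMI is 2.47 CPM, limit every comparison with that library.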
